A study of Mus musculus with 8 samples.

Results

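Wild-type enteric neural crest cells were described from 3 libraries labelled WT, of 8 libraries in the series, chosen by that label alone. The other libraries carry a label of Emb knockdown and were not compared here. All 3 came from the gut of mice at embryonic day 14.5, with wild type as the only genotype given. The tissue was dissociated with enzymes, and cells were sorted on CD271 and CD57, with about 200 cells going into a tube. No strain, sex, litter or sorting date was given, and nothing stated that the tubes came from separate embryos. The spread given below is therefore that between 3 libraries, and part of it may be technical. With 1 group there was no comparison to test, and every value is a description.

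Enteric neural crest cells leave the hindbrain, enter the foregut and migrate along the gut, dividing as they go, and give rise to the neurons and glia of the enteric nervous system. Their survival and migration depend on the receptor tyrosine kinase Ret and on the endothelin receptor Ednrb, while the transcription factor Sox10 keeps the progenitor state. At midgestation the mouse gut holds progenitors, young neurons and early glia side by side. Ngfr encodes CD271, a receptor of neurotrophins, and CD57 is a sugar epitope on cell surface proteins and lipids.

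WT1, WT2 and WT3 held 21248200, 26959265 and 24334712 estimated read counts over 18561 genes. Levels are given in TPM, transcripts per 1000000 transcripts, which is scaled to gene length and sums to 1000000 in each library, so that genes can be set side by side within a library. A gene was counted as detected at a TPM of at least 1 in each of the 3 libraries, which 12729 genes (68.6%) were, and 858 genes were at 0 in all 3. The median of all genes was 7.10 TPM, 1627 genes had a mean of at least 100 TPM and 158 a mean of at least 1000 TPM. A count of 3 corresponded to 0.141, 0.111 and 0.123 counts per 1000000 counts in WT1, WT2 and WT3, a limit that covers counting error only.

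The 3 defining genes of the lineage were present in every library. Sox10 was at 165, 188 and 159 TPM in WT1, WT2 and WT3, a mean of 171 ± 15.3 TPM (SD, n = 3). It lies on chromosome 15 (GRCm38.p6, chr15:79154913-79164490) and encodes the SRY-box factor of neural crest progenitors and glia. Ret was at 63.7, 50.8 and 48.6 TPM, a mean of 54.4 ± 8.19 TPM (SD, n = 3), and lies at chr6:118151748-118197744. Ednrb was at 464, 628 and 623 TPM, a mean of 572 ± 92.9 TPM (SD, n = 3), and lies at chr14:103814615-103844508. The markers of the label were thus present, at rank 269 of all genes for Ednrb, rank 968 for Sox10 and rank 2893 for Ret. The values of these genes in the 3 libraries did not overlap. Their presence does not give the share of crest cells, and the smooth muscle gene Acta2 ranked higher, at 181. Ednrb was 10.8 ± 3.07 times as high as Ret (SD, n = 3).

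**Figure D1:**
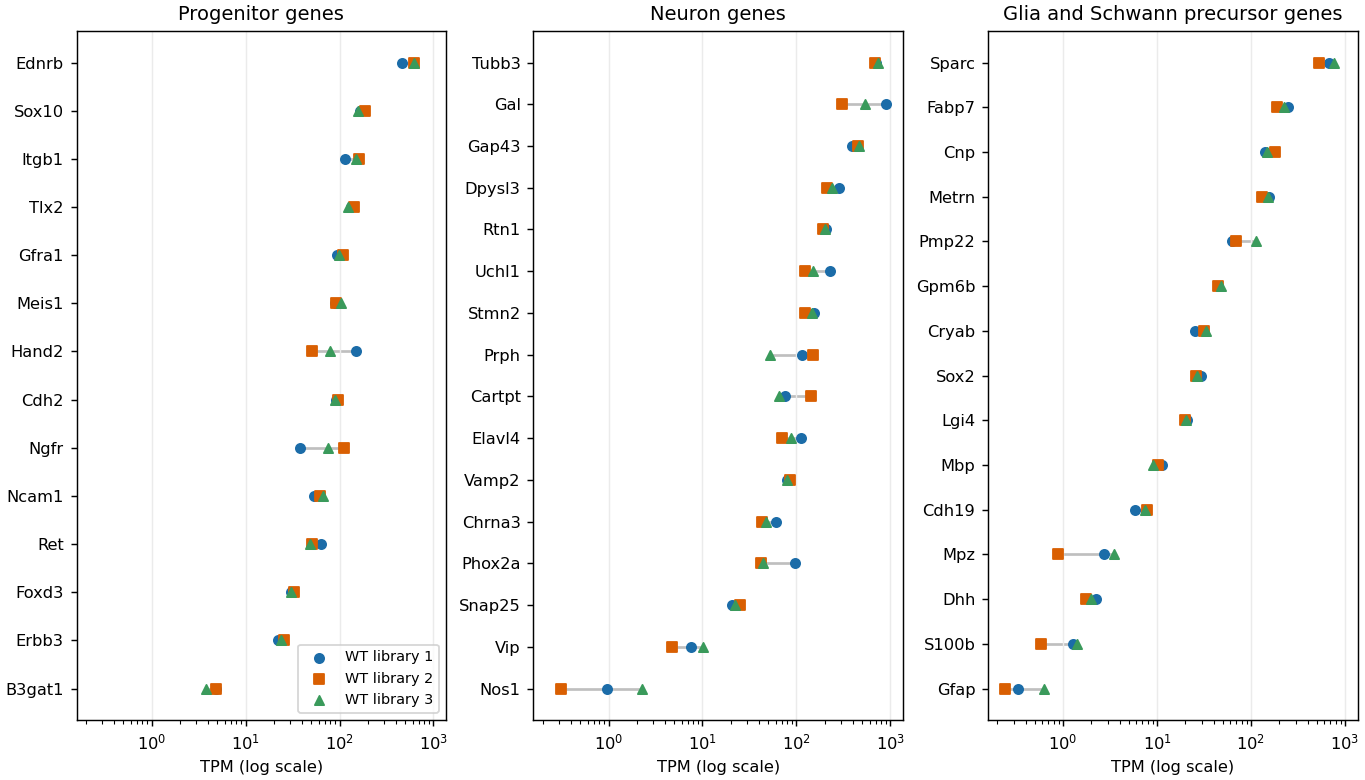
TPM on a log scale of neural crest progenitor, neuron and glia genes; each point is 1 of 3 WT libraries. Ednrb lies near 600 TPM in WT2 and WT3 and at 464 TPM in WT1 and Gfap below 1 TPM in all 3.

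Among 20 transcription factors of enteric progenitors, 18 were detected, and their summed level was 1353, 1257 and 1277 TPM. Tlx2, a homeobox gene that enteric neurons need, was at 131, 142 and 123 TPM, and Meis1, a TALE homeodomain factor, was at 88.5, 92.4 and 104 TPM. Sox10 stood above Tlx2 and Tlx2 above Meis1 without overlap of the libraries, whereas Meis1 and Hand2 overlapped. Hand2, a basic helix-loop-helix factor of enteric neuron differentiation, varied most among the leading members, at 148, 50.7 and 78.9 TPM. Foxd3, a forkhead factor that keeps crest cells multipotent, was even across libraries at 30.4, 32.6 and 30.4 TPM. Snai2, a zinc-finger factor of crest delamination, was at 41.1, 42.1 and 67.0 TPM. The premigratory crest factors Tfap2b and Pax3 were the 2 members not detected, with means of 0.35 and 0.05 TPM.

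Of 20 receptors and adhesion molecules of migrating crest, 19 were detected, with Dcc, a netrin receptor, at a mean of 0.44 TPM. Ednrb was the highest and was followed by Itgb1, the beta-1 integrin subunit through which crest cells grip the matrix, at 115, 162 and 149 TPM. Gfra1, the co-receptor that presents GDNF to Ret, was at 94.95, 108 and 99.4 TPM, which was 1.89 ± 0.348 times the level of Ret (SD, n = 3). Cdh2, the N-cadherin of cell contacts between migrating cells, was at 92.1, 95.3 and 88.6 TPM, and Ncam1, a neural adhesion molecule, at 54.0, 62.4 and 67.5 TPM. Gfra1, Cdh2 and Ngfr overlapped in level.

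The antigens used for the sort were uneven. Ngfr, which encodes CD271, was at 38.4, 112 and 75.9 TPM, a mean of 75.4 ± 36.7 TPM (SD, n = 3) and a coefficient of variation (SD over mean) of 48.7%. WT2 was thus the highest and WT1 the lowest library for Ngfr, while Ret was highest in WT1. CD57 is made by glucuronyltransferases and a sulfotransferase. B3gat1, the main glucuronyltransferase, was at 4.86, 4.80 and 3.77 TPM, its relative B3gat2 at 0.69, 0.81 and 1.17 TPM, and the sulfotransferase Chst10 at 7.11, 9.49 and 9.73 TPM. All 3 enzyme genes were far below Ngfr in every library.

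Neuronal genes were abundant. All 18 pan-neuronal genes were detected, with a summed level of 2704, 2513 and 2525 TPM and a member median of 94.4 TPM, against 7.10 TPM for all genes. Tubb3, the neuronal beta-tubulin, was at 704, 688 and 735 TPM, with a coefficient of variation of 3.37%, and stood 4.18 ± 0.487 times above Sox10 (SD, n = 3). Gap43, a growth cone protein, was at 389, 448 and 462 TPM. Dpysl3, a regulator of axon growth, was at 280, 214 and 239 TPM, and its relative Crmp1 at 160, 153 and 161 TPM. Rtn1, a reticulon of neuronal endoplasmic reticulum, was at 206, 193 and 199 TPM. Uchl1, the ubiquitin hydrolase PGP9.5 used as a general stain of enteric neurons, was uneven at 229, 123 and 151 TPM. Tubb3, Gap43 and Dpysl3 fell in that order without overlap, while Uchl1 overlapped both Rtn1 and Crmp1.

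The genes of mature synapses were lower, with a member median of 9.39 TPM and 15 of 17 detected. Vamp2, a vesicle SNARE, led with 78.8, 84.7 and 79.1 TPM, and Rab3a, a vesicle GTPase, had 53.6, 41.9 and 39.3 TPM. The calcium sensor Syt1 was at 28.5, 20.4 and 21.9 TPM and the plasma membrane SNARE Stx1a at 22.5, 25.8 and 20.4 TPM. Sv2c, a vesicle glycoprotein, had a mean of 0.48 TPM.

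Of 17 transcription factors of enteric neurons, 14 were detected. Hoxb5 led with 173, 126 and 127 TPM, followed by the SoxC factor Sox4 at 126, 138 and 130 TPM. Its relative Sox11 was at 69.6, 65.2 and 60.7 TPM, the T-box factor Tbx2 at 69.9, 73.8 and 56.9 TPM and the ETS factor Etv1 at 47.3, 32.1 and 52.0 TPM. Phox2a, a homeodomain factor of enteric and autonomic neurons, was at 96.1 TPM in WT1 and at 42.2 and 44.5 TPM in WT2 and WT3. Scrt2, a neuronal repressor, had a mean of 0.14 TPM.

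Neurotransmitter and peptide genes were uneven among themselves: 15 of 24 were detected, the member median was 3.60 TPM and 8 had a mean below 1 TPM. Gal, the neuropeptide galanin, was far the highest at 902, 308 and 538 TPM, and Cartpt, the CART peptide, followed at 76.1, 144 and 65.0 TPM. Dbh, the enzyme that makes noradrenaline and a mark of transient catecholaminergic precursors in the embryonic gut, was at 60.7, 52.8 and 33.2 TPM. Penk, the enkephalin precursor, was at 33.3, 46.3 and 26.96 TPM, and Npy, neuropeptide Y, at 12.4, 14.8 and 28.5 TPM. Slc18a3, the vesicular acetylcholine transporter, was at 21.2, 25.98 and 21.2 TPM, while Chat, the enzyme that makes acetylcholine, was at 1.48, 1.24 and 1.13 TPM. Nos1, the nitric oxide synthase of inhibitory motor neurons, was at 0.97, 0.31 and 2.27 TPM and Vip, the peptide of the same neurons, at 7.6, 4.76 and 10.03 TPM. The members below a mean of 1 TPM were Grp at 0.84, Calcb at 0.80, Slc6a2 at 0.27, Sst at 0.22, Gad1 at 0.09, Gad2 and Nmu each at 0.06 and Slc17a6 at 0.02 TPM. They encode neuropeptides (Grp, Calcb, Sst, Nmu), the noradrenaline transporter, the GABA-making enzymes and a vesicular glutamate transporter.

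Of 18 ion channel and receptor genes of enteric neurons, 12 were detected. The nicotinic acetylcholine receptor subunits Chrnb4 and Chrna3 led, at 64.8, 47.7 and 46.9 TPM for Chrnb4 and at 61.4, 43.2 and 47.8 TPM for Chrna3. Both were highest in WT1, and their ratio, Chrna3 over Chrnb4, was 0.957 ± 0.0583 (SD, n = 3). These 2 subunits, which assemble with one another in ganglionic receptors, did not differ in level beyond the spread.

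Glial genes were split between early and mature members. Of 22 genes, 17 were detected, with a summed level of 1487, 1316 and 1634 TPM. Sparc, a matrix glycoprotein that mesenchyme and endothelium also make, gave the largest share with 678, 533 and 770.5 TPM. Fabp7, the fatty acid binding protein of early glia, was at 247, 190 and 226 TPM. Metrn, a secreted glial differentiation factor, was at 156, 131 and 153 TPM, the nucleotide phosphodiesterase Cnp at 139, 182 and 149 TPM, the myelin protein gene Pmp22 at 62.1, 68.7 and 112 TPM and the glycoprotein gene Gpm6b at 44.5, 44.4 and 48.4 TPM. Genes of mature enteric glia were near the limit: S100b, a calcium-binding protein, was at 1.28, 0.58 and 1.41 TPM, and the intermediate filament gene Gfap at 0.33, 0.24 and 0.63 TPM. Col28a1 and Mal, a collagen and a myelin lipid raft protein, had means of 0.36 and 0.28 TPM.

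**Figure D2:**
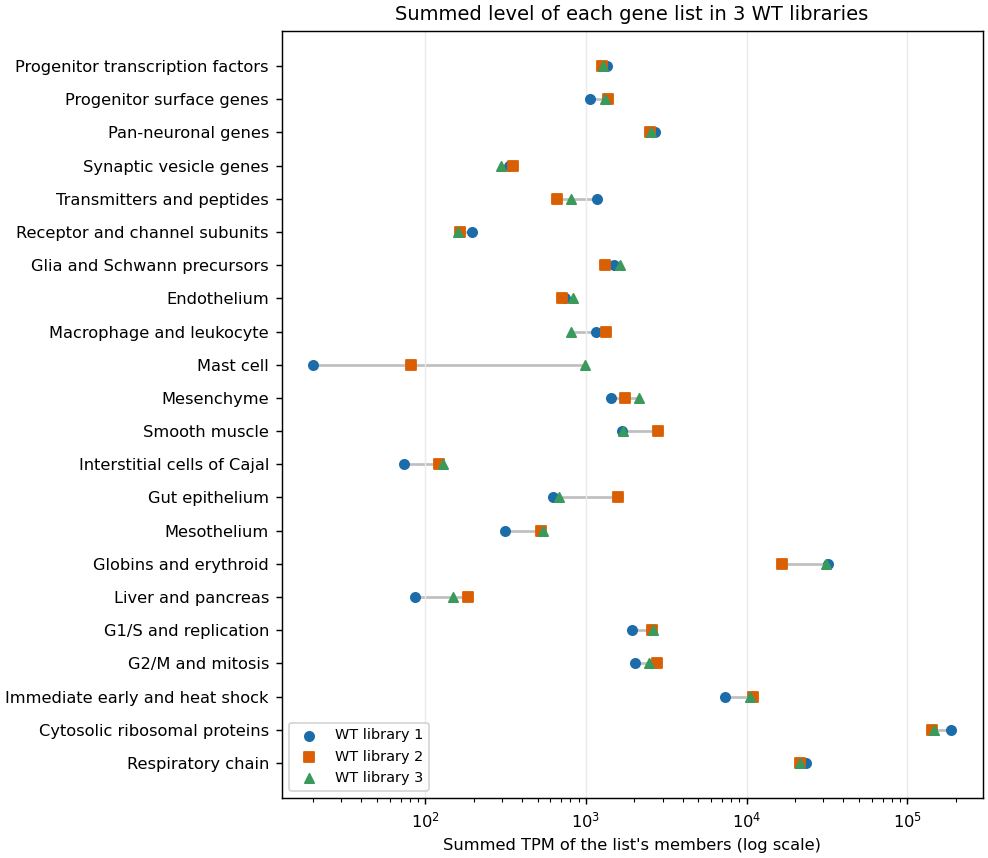
Summed TPM on a log scale of the members of each gene list; each point is 1 of 3 WT libraries. Ribosomal protein genes (142534 to 186062 TPM) and erythroid genes (16502 to 32026 TPM) stand highest, and the mast cell list spreads from 20.1 to 984 TPM.

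In the GDNF family, Gfra1 and Ret stood above every ligand in each library. GDNF is made by gut mesenchyme and binds Gfra1 and Ret on crest cells. Gdnf itself was at 3.79, 2.60 and 3.44 TPM, and Ret was 16.8 ± 2.70 times as high (SD, n = 3). Nrtn, the related ligand neurturin, was at 4.72, 10.4 and 13.9 TPM, and its co-receptor gene Gfra2 at 7.12, 10.7 and 8.23 TPM. Gfra4, the persephin co-receptor, was at 6.94, 8.25 and 9.80 TPM, while its ligand gene Pspn had a mean of 0.46 TPM. The list summed to 184, 194 and 187 TPM.

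In the endothelin pathway, Ednrb was 47.9 ± 5.48 times as high as Ednra, the other endothelin receptor (SD, n = 3). Ednra was at 8.76, 12.9 and 14.8 TPM. Edn3, the ligand of Ednrb in gut mesenchyme, was at 11.4, 13.8 and 15.9 TPM, overlapping Ednra. Edn1 was at 33.0 TPM in WT2 but at 5.72 and 4.36 TPM in WT1 and WT3, and Edn2 was also highest in WT2, at 6.22 TPM against 1.28 and 4.01 TPM. Ece1, the protease that activates endothelins, was at 34.0, 43.5 and 48.2 TPM, and its relative Ece2 had a mean of 0.95 TPM.

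Of the neuregulin receptors, Erbb3, which crest and glial cells use, was at 22.4, 25.7 and 23.8 TPM and its signalling partner Erbb2 at 9.91, 15.9 and 14.9 TPM. Erbb4 was at 0.06, 0.07 and 0.07 TPM. The ligand gene Nrg1 was at 7.35, 4.88 and 5.69 TPM and Nrg2 at 4.71, 4.36 and 4.96 TPM, and Egfr, the epidermal growth factor receptor, was at 4.04, 3.87 and 6.34 TPM.

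All 21 Notch genes were detected, with a sum of 917, 1006 and 1048 TPM. The atypical ligand gene Dlk1 was the highest at 254, 368 and 444 TPM. Hes6, a proneural target that opposes Hes1, was at 243, 244 and 197 TPM, and Hes1, the classic Notch target, at 29.2, 54.9 and 46.5 TPM. Hes6 stood above Hes1 in every library. The glycosyltransferase genes Mfng and Rfng were at 135, 109 and 105 TPM and at 40.1, 50.9 and 45.6 TPM. Dll3, a ligand that inhibits Notch within the same cell, was at 59.6, 41.8 and 39.6 TPM and was highest in WT1.

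All 26 BMP and TGF-beta genes were detected, and their sum was the steadiest of the signalling lists at 2020, 1996 and 2007 TPM. The members were less steady than the sum, with a median coefficient of variation of 14.5% against 0.58% for the sum. Id3, Id2 and Id1, targets of BMP that block basic helix-loop-helix factors, made most of the sum, at 964, 806 and 906 TPM, at 404, 529 and 431 TPM and at 211, 157 and 186 TPM. These 3 did not overlap in level. The ligand gene Tgfb2 was at 74.9, 71.0 and 70.6 TPM, the signal transducer Smad1 at 46.2, 73.4 and 62.5 TPM and the ligand gene Bmp4 at 34.1, 35.6 and 55.1 TPM.

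Of 18 genes of retinoic acid signalling, which Ret expression and migration need, 16 were detected. The retinaldehyde reductase Dhrs3 was at 80.2, 114 and 105 TPM, and the receptor genes Rara, Rxrb and Rarb at 77.2, 99.0 and 77.4 TPM, at 48.4, 59.2 and 54.4 TPM and at 34.4, 46.2 and 42.2 TPM. Aldh1a2, which makes retinoic acid and is known from gut mesenchyme and mesothelium, was at 59.5, 42.1 and 63.5 TPM. Rxrg had a mean of 0.90 TPM.

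Of 27 Wnt genes, 23 were detected. Ctnnb1, beta-catenin, was at 289, 246 and 222 TPM, the secreted antagonist Sfrp1 at 64.2, 80.9 and 88.8 TPM, the receptor gene Fzd2 at 34.4, 47.8 and 46.8 TPM and the transcriptional effector Tcf7l1 at 40.0, 41.8 and 45.9 TPM. The agonist Rspo1 was at 27.1, 36.0 and 44.8 TPM and the scaffold gene Axin1 at 30.6, 38.5 and 36.9 TPM. Celsr3, a planar polarity cadherin, the R-spondin receptor Lgr5 and the antagonist Dkk1 had means of 0.89, 0.61 and 0.13 TPM.

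Of 14 hedgehog genes, 13 were detected, led by the co-receptor gene Gas1 at 57.9, 89.1 and 84.2 TPM and the signal transducer Smo at 46.5, 57.2 and 49.2 TPM. Sufu, which restrains the Gli factors, was at 16.2, 18.3 and 15.4 TPM, Gli1 at 10.8, 12.3 and 10.3 TPM, Gli3 at 10.2, 8.83 and 10.9 TPM and the receptor gene Ptch1 at 9.88, 5.13 and 7.88 TPM. The ligands Shh and Ihh, which gut epithelium makes, were highest in WT2, at 5.28 TPM for Shh against 0.49 and 1.34 TPM, and at 14.6 TPM for Ihh against 1.97 and 4.49 TPM. WT2 was also the library with the highest sum of epithelial genes, 1592 TPM against 625 and 679 TPM, whose part in these ligands and in Edn1 was not tested.

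All 11 genes of the feedback on receptor tyrosine kinase signalling were detected. Egr1, an immediate early gene, was at 371, 515 and 541 TPM, the ERK phosphatase gene Dusp6 at 95.3, 129 and 120 TPM and the inhibitor gene Spry1 at 67.6, 74.0 and 71.8 TPM. Spry2 was at 24.7, 27.2 and 26.9 TPM, and the ETS factors Etv5 and Etv4 at 17.9, 26.5 and 20.8 TPM and at 19.0, 22.2 and 20.9 TPM. The median coefficient of variation over the 11, of which 9 had a mean of at least 10 TPM, was 7.75%. Over all genes with a mean of at least 10 TPM it was 12.5%. The sum of the list, which Egr1 led, had a coefficient of variation of 14.6%.

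Hox genes record position along the body axis, with low paralogue groups in the hindbrain and high ones in the tail. Of 37 Hox genes, 27 were detected. Groups 2, 3, 4 and 5 held 12.8%, 25.1%, 20.4% and 27.3% of the summed Hox TPM. Group 5 summed to 198 TPM and group 6 to 46.5 TPM, and groups 7 to 11 each had a mean sum below 16 TPM. Hoxb5 was the highest single gene, followed by Hoxd3 at 144, 137 and 130 TPM, whose libraries overlapped with it, and by Hoxb2 at 69.7, 69.2 and 61.6 TPM. Hoxa4 was at 56.7, 52.5 and 50.9 TPM, Hoxa5 at 41.6, 51.9 and 40.5 TPM and Hoxd4 at 45.0, 30.4 and 37.0 TPM. The B cluster gave 45.0% of the Hox TPM, the D cluster 26.01%, the A cluster 22.3% and the C cluster 6.71%. Of the outermost groups, Hoxb1 had a mean of 0.28 TPM, Hoxd12 0.49, Hoxb13 0.51, Hoxd13 0.35 and Hoxa13 0.12 TPM, and Hoxc11 was listed at 0 in all 3 libraries.

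**Figure D3:**
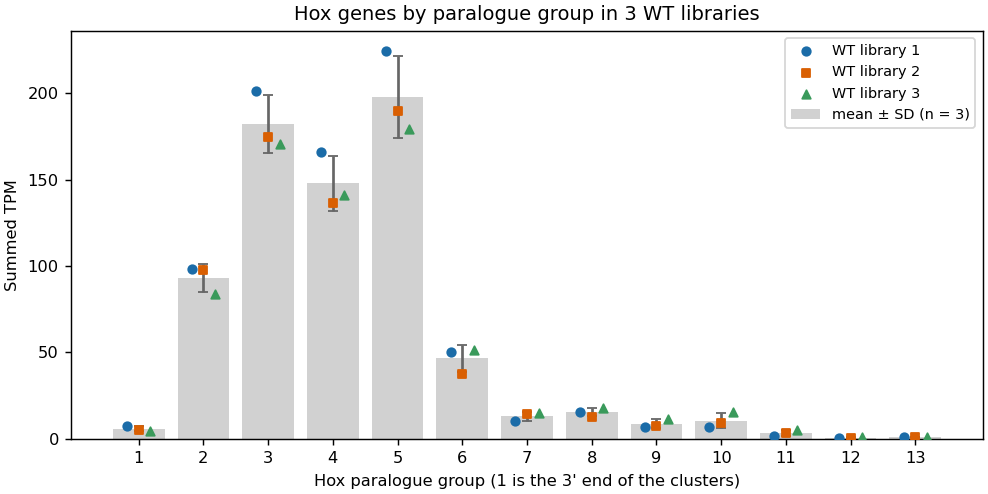
Summed TPM by Hox paralogue group, from group 1 at the 3' end of the clusters to group 13; bars are means of 3 WT libraries, error bars are SD and points are libraries. Groups 3, 4 and 5 reach means of 182, 148 and 198 TPM, and the means of groups 7 to 13 lie below 16 TPM.

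Emb, the gene the study was built around, encodes embigin, a glycoprotein that chaperones monocarboxylate transporters. It was at 10.4, 12.7 and 10.8 TPM, a mean of 11.3 ± 1.23 TPM (SD, n = 3). Bsg, which encodes basigin and has the same chaperone role, was 67.7 ± 6.18 times as high (SD, n = 3), at 649, 836 and 802 TPM. Nptn, the third family member neuroplastin, was at 78.1, 91.5 and 92.2 TPM. Of the transporters, Slc16a3 was at 31.4, 63.3 and 43.1 TPM, Slc16a1 at 9.49, 10.1 and 7.87 TPM, Slc16a7 at 2.21, 1.46 and 2.54 TPM and Slc16a8 at a mean of 0.47 TPM.

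Genes of dividing cells were high. All 26 G1/S genes and all 24 G2/M genes were detected, with member medians of 86.0 and 59.9 TPM. Ube2c, the ubiquitin-conjugating enzyme of the anaphase-promoting complex, was at 515, 592 and 538 TPM, and Birc5, survivin, at 264, 345 and 323 TPM. The mitotic cyclin genes Ccnb1 and Ccnb2 were at 150, 244 and 202 TPM and at 115, 199 and 162 TPM, the complex activator Cdc20 at 143, 245 and 197 TPM and the topoisomerase Top2a at 101, 118 and 114 TPM. In every one of these 6 genes WT1 was the lowest and WT2 the highest library, whereas over all 13477 genes with a mean of at least 1 TPM WT1 was the lowest for 58.1% and WT2 the highest for 48.3%. Of the G1/S genes, Pcna, the DNA polymerase clamp, was at 235, 245 and 278 TPM, the helicase subunit genes Mcm6, Mcm7 and Mcm3 at 141, 217 and 203 TPM, at 166, 177 and 160 TPM and at 95.05, 150 and 155 TPM. Rrm2, which makes deoxynucleotides, was at 130, 205 and 207 TPM, and Rfc2, a clamp loader subunit, at 137, 176 and 185 TPM.

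The cyclin D kinase Cdk4 was at 1376, 1349 and 1378 TPM, with a coefficient of variation of 1.21%. The D cyclins fell in the order Ccnd3 (333, 502 and 475 TPM), Ccnd1 (285, 331 and 255 TPM) and Ccnd2 (117, 134 and 149 TPM), without overlap. Of the kinase inhibitors, Cdkn1c, an imprinted gene that stops the cycle on differentiation, was the highest at 814, 1161 and 1188 TPM. Cdkn2d was at 56.7, 74.1 and 63.0 TPM, and Cdkn2a was listed at 0 in all 3 libraries.

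The 24 G2/M genes shared 1 order of libraries, with WT1 the lowest and WT2 the highest for each. Over all genes with a mean of at least 1 TPM, WT1 was the lowest for 58.1% and WT2 the highest for 48.3%. Promoters of G2/M genes are known to carry CCAAT boxes, bound by NF-Y, and an element with the core TTTGAA. Cell cycle complexes time transcription through that element. Whether these motifs relate to the order of libraries was not tested. In RefSeq promoters of GRCm38.p6, trimmed to the 250 bases before the start, 20 of the 24 G2/M genes had a window. CCAAT, searched as CCAAT or ATTGG so that both strands count, was in 17 of 20 windows (85.0%), against 33.8% of all 32851 windows and 35.7% of those of genes with a mean of at least 10 TPM. TTTGAA, searched as TTTGAA or TTCAAA, was in 8 windows (40.0%), against 16.0% and 10.4%. Both motifs stood in 40.0% of G2/M windows, against 5.55% of all windows and 4.06% of those of genes with at least 10 TPM. Of G1/S windows, 62.5% held CCAAT, 12.5% held TTTGAA and 8.33% held both. The windows below belong to the 3 G2/M genes of highest mean level that held both motifs, written 5′ to 3′ on the strand of the gene and ending at the base before the start. Capitals mark the matches, and in CCAATTGG a match on each strand overlaps the other. Ube2c lies at chr2:164769679-164769928 (plus strand), Cdc20 at chr4:118437344-118437593 (minus strand) and Ccnb2 at chr9:70421555-70421804 (minus strand).
Ube2c: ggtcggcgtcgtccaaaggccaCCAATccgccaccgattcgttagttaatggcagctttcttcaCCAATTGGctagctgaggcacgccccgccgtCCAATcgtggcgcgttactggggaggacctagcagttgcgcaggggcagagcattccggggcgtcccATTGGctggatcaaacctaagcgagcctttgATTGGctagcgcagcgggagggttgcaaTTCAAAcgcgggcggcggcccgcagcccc
Cdc20: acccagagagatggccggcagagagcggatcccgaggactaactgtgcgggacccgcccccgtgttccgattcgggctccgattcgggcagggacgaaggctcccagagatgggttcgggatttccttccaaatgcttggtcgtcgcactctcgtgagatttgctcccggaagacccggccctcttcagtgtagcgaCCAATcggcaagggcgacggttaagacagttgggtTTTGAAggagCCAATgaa
Ccnb2: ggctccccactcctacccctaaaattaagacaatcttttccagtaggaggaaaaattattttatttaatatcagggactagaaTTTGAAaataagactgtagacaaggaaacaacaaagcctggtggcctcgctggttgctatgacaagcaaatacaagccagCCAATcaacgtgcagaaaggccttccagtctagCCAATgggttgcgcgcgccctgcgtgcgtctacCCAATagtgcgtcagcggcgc
Ube2c held 6 CCAAT matches and Cdc20 2, and their TTTGAA matches lay 29 and 18 bases before the start. Ccnb2 held 3 CCAAT matches in its last stretch, and its TTTGAA match lay 167 bases before the start. A match is a description of the letters, not a measured site.

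Markers of other cell types of the gut were present in all 3 libraries, at levels set out here beside the crest genes. In tubes of about 200 cells, fewer cells of a type and less RNA per cell cannot be told apart, and the part of such cells in the crest, signalling and Hox values above was not tested. Smooth muscle genes summed to 1668, 2814 and 1704 TPM, above the 1353, 1257 and 1277 TPM of the progenitor factors. All 12 were detected, led by the actin genes Acta2 at 705, 1126 and 738 TPM and Actg2 at 415, 695 and 355 TPM. Tagln, transgelin, was at 255, 404 and 237 TPM, the calponin gene Cnn1 at 112, 293 and 153 TPM, the myosin light chain kinase Mylk at 75.1, 125 and 91.1 TPM and smoothelin, Smtn, at 29.8, 58.4 and 48.5 TPM. WT2 was the highest library for each of these 6, against 48.3% of all genes.

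Of 20 mesenchyme genes, 18 were detected, with sums of 1428, 1738 and 2138 TPM. The collagen genes Col1a1, Col3a1 and Col1a2 were at 266, 381 and 458 TPM, at 238, 258 and 339 TPM and at 106, 118 and 151 TPM. The matrix genes Fbln1, Mfap4 and Dcn were at 238, 262 and 272 TPM, at 178, 182 and 220.5 TPM and at 77.6, 128 and 222 TPM. All 6 were lowest in WT1, as 58.1% of all genes were, and highest in WT3, as 30.7% of all genes were. Mesothelium genes summed to 312, 523 and 536 TPM, of which the keratin Krt19, shared with epithelium, made 127, 300.2 and 161 TPM. Upk3b and Upk1b, uroplakins of the serosal surface, were at 80.7, 95.4 and 184 TPM and at 33.1, 36.5 and 77.0 TPM, and Wt1, the transcription factor of the mesothelium, at 17.2, 24.8 and 33.4 TPM. Upk3b, Upk1b and Wt1 were highest in WT3, against 30.7% of all genes, and Krt19 was highest in WT2. Msln, mesothelin, went the other way from Upk3b, at 5.69, 4.56 and 1.11 TPM. Muc16, the CA125 mucin, had a mean of 0.71 TPM.

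Of 20 endothelial genes, 19 were detected, with sums of 734, 709 and 829 TPM. Plvap, the diaphragm protein of fenestrated vessels, was at 132, 135 and 99.7 TPM, the adrenomedullin co-receptor Ramp2 at 115, 99.0 and 129 TPM and the secreted Egfl7 at 73.9, 92.1 and 100 TPM. The junction genes Esam, Pecam1 and Cdh5 were at 79.4, 68.5 and 99.0 TPM, at 59.2, 41.3 and 67.4 TPM and at 43.8, 40.8 and 58.8 TPM. Each was highest in WT3, which was the highest library for 30.7% of all genes.

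Of 20 leukocyte genes, 19 were detected, with sums of 1145, 1327 and 809 TPM. The adaptor genes Tyrobp and Fcer1g were at 246, 254 and 160 TPM and at 171, 153 and 149 TPM. C1qb and C1qc, complement genes of tissue macrophages, were at 118, 123 and 103 TPM and at 87.7, 90.8 and 54.9 TPM, and the lysosomal membrane gene Laptm5 was at 79.7, 73.4 and 62.1 TPM. Lyz2, the lysozyme of macrophages and granulocytes, was at 192, 300 and 52.1 TPM. WT3 was the lowest for all 6, as it was for 20.6% of all genes. The sum of 8 mast cell genes, of which 3 were detected, went the other way, at 20.1, 81.9 and 984 TPM. Ms4a2, Mcpt4 and Mcpt1 had means of 0.86, 0.70 and 0.05 TPM. Mcpt4 ran against the sum, at 1.82, 0.29 and 0 TPM, and Mcpt1 was at 0.16, 0 and 0 TPM. In WT3 the chymase Cma1 reached 414 TPM, the tryptase Tpsb2 298 TPM and the carboxypeptidase Cpa3 166 TPM, against 0.15, 0 and 7.28 TPM in WT1 and 11.1, 0.07 and 14.8 TPM in WT2. Hdc, which makes histamine, was at 2.23, 43.4 and 90.2 TPM, while Kit, the receptor of mast cells and of interstitial cells, was at 8.04, 11.8 and 14.3 TPM. Without WT3, the mean of the mast cell list fell from 362 to 51.0 TPM.

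Of 19 epithelial genes, 17 were detected. The keratin genes Krt8 and Krt18 were at 77.5, 243 and 88.3 TPM and at 97.0, 229.6 and 81.6 TPM, the protease inhibitor Spint2 at 163, 241 and 160 TPM, the claudin Cldn7 at 37.6, 166 and 55.8 TPM and the galectin Lgals4 at 48.8, 118 and 35.4 TPM. WT2 was the highest for each, against 48.3% of all genes, and without WT2 the mean of the list fell from 965 to 652 TPM. Foxa2, an endoderm factor, had a mean of 0.35 TPM. Interstitial cell genes summed to 73.2, 121 and 129 TPM, led by the gap junction gene Gja1 at 48.5, 77.8 and 88.9 TPM, with the chloride channel Ano1 at 8.74, 19.2 and 13.8 TPM. Liver and pancreas genes summed to 86.1, 185 and 148 TPM, and Fgb, Prss1 and Pdx1 had means of 0.66, 0.42 and 0.21 TPM. Of melanocyte genes, Sox10 and Kit are shared with crest and mast cells, the regulator Mitf was at 2.67, 3.06 and 4.92 TPM, and the pigment genes Tyr, Pmel and Dct had means of 0.85, 0.52 and 0.06 TPM.

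Hemoglobin genes, carried by red cells, summed higher than any other cell type list, and Hba-a2 was the gene of highest mean TPM. The globins made 3.20%, 1.65% and 3.10% of TPM in WT1, WT2 and WT3. Hba-a2 and Hba-a1 were at 11435, 7170 and 9629 TPM and at 8600, 3422 and 7499 TPM, and since these adult alpha genes are near-identical the split between them is uncertain. The balance of adult and embryonic chains differed between libraries. The adult beta genes Hbb-bs and Hbb-bt summed to 7438, 4398 and 1161 TPM, whereas the embryonic beta genes summed to 4075, 1209 and 9356 TPM. Hba-x, the embryonic alpha gene, was at 440, 272 and 3338 TPM. Embryonic chains made 14.1%, 8.995% and 41.0% of globin TPM. The ratio of Hbb-y to Hbb-bs was 0.926 in WT1, 0.502 in WT2 and 16.9 in WT3. Embryonic chains come from primitive red cells of the yolk sac, and adult beta chains mainly from definitive red cells of the fetal liver. The adult alpha genes summed to 20035, 10592 and 17129 TPM, and in WT3 they were high where the adult beta genes were low. The shares of embryonic chains are shares of TPM and were not read as shares of red cell kinds.

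The 68 listed ribosomal protein genes made up 15.8% of all TPM on average, with Rps18 at 8087, 6825 and 7257 TPM, Rps19 at 7723, 6558 and 7246 TPM and Rpl13 at 7091, 6833 and 6927 TPM. The list left out Rpl41, with a mean of 6248 TPM, and Rps3a1, with 3124 TPM, so the share is a low one. Beside ribosomal protein genes and the globins, the 30 genes of highest mean level held Ubb, a polyubiquitin gene, at 7334 TPM, the peptidyl-prolyl isomerase Ppia at 7040 TPM, the alpha-tubulin Tuba1a at 4464 TPM and the glycolytic enzyme Gapdh at 4135 TPM. The 30 together made 170409, 137212 and 154104 TPM. One of them, LOC105244208, had a mean of 3910 TPM and is named in RefSeq as a transcribed pseudogene of Rps6. Rps6 itself was at 128, 110 and 105 TPM, 0.0292 times as high. Reads of near-identical copies can be assigned to either, so both values are uncertain. All 40 genes of oxidative phosphorylation were detected, with a sum of 22127 ± 1182 TPM (SD, n = 3).

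Immediate early and heat shock genes, which enzymatic dissociation is known to induce, were high. The part of dissociation in these levels was not tested. Of 23 genes, 22 were detected, with sums of 7291, 10954 and 10487 TPM. The chaperone Hspa8 was at 2859, 4003 and 3526 TPM, Fos at 911, 1282 and 1446 TPM, Jun at 303, 677 and 593 TPM, the nuclear receptor Nr4a1 at 291, 577 and 535 TPM and Ier2 at 335, 517 and 511 TPM. Fos, Jun, Nr4a1 and Ier2 are transcription factors or regulators that respond to stimulation within minutes. These 5 genes were lowest in WT1, as Egr1 was, and WT1 was the lowest library for 58.1% of all genes.

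The 3 libraries were close across genes. Spearman's rho over 18561 genes was 0.976 to 0.979 between pairs, as a description over genes that share their library. Over 8246 genes with a mean of at least 10 TPM, the median coefficient of variation was 12.5%, 3072 genes (37.3%) were below 10% and 158 (1.92%) above 50%. Without WT1 the median was 6.53%, without WT2 11.2% and without WT3 14.2%, so WT2 and WT3 were the closest pair by this measure. With all 3 libraries the median fell with level, from 29.3% at 1 to 3 TPM to 10.3% at 100 to 300 TPM, and was 15.1% at 1000 TPM and above. At the lowest of these levels counting error alone would give 10.3%, and at the highest 0.706%. The common biological coefficient of variation that edgeR estimated from the rounded counts of 14273 genes was 22.8%.

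**Figure D4:**
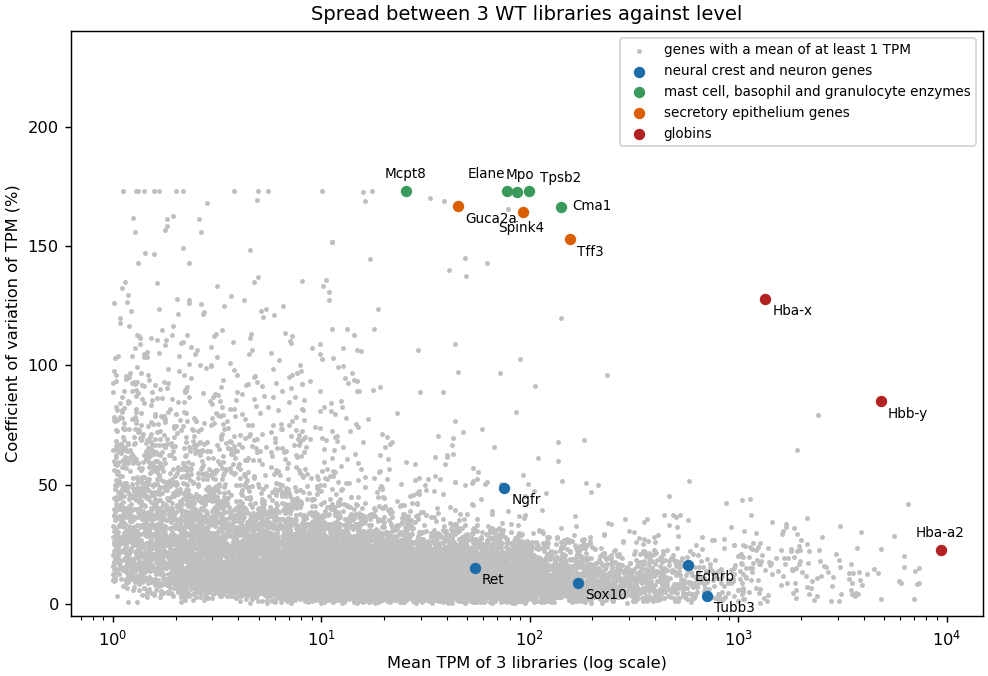
Coefficient of variation over 3 WT libraries against mean TPM on a log scale; each grey point is a gene with a mean of at least 1 TPM, and named genes are coloured by kind. Tubb3 lies at 3.37%, Ngfr at 48.7%, and the 8 labelled enzyme and secretory genes above 150%.

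The genes of highest spread above 20 TPM were each carried by 1 library. The ranking itself brings this about. Over 3 libraries, a coefficient of variation this high needs 1 library to hold nearly all of the TPM. Of the 10, 4 belonged to WT3: Tpsb2 and Cma1, given above, and the granulocyte enzymes Elane and Mpo, at 234 and 260 TPM in WT3 and below 0.3 TPM in the other two. The other 6 belonged to WT2. The basophil protease Mcpt8 was at 76.7 TPM in WT2 and at 0 in WT1 and WT3, where a count of 3 would be 0.315 and 0.294 TPM. The goblet cell gene Spink4 was at 4.96, 270 and 4.67 TPM and Guca2a, the gut peptide guanylin, at 1.11, 133 and 2.36 TPM. Ccl21b, Gm1987 and LOC100041504, near-identical copies of 1 chemokine gene whose reads can be split between them, completed the 10, at 98.8, 228 and 115 TPM in WT2. At the other end, the 10 genes of lowest spread were Tinf2, Mrps33, Mest, Farsb, Wbp2, Anapc13, Fbxl6, Pigu, Elk3 and Naa60. Mest, an imprinted gene of embryonic mesoderm, was at 1273, 1278 and 1281 TPM.

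Of the 8246 genes with a mean of at least 10 TPM, 1 was over 4 times above both other libraries in WT1, 29 in WT2 and 13 in WT3. In the other direction, 17 were more than 4 times below both others in WT1, 2 in WT2 and 5 in WT3. The single gene above both others in WT1 was Cd74, the invariant chain of MHC class II. Tff3, a goblet cell trefoil peptide chosen after its values were seen, was at 22.9, 431 and 13.9 TPM, and Prtn3, a granulocyte protease chosen likewise, at 7.78, 8.34 and 131 TPM.

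The libraries also differed in an ordered way across lists. Over 13477 genes with a mean of at least 1 TPM, WT1 was the highest library for 21.1%, WT2 for 48.3% and WT3 for 30.7%, and WT1 was the lowest for 58.1%, WT2 for 21.3% and WT3 for 20.6%. Against that background, WT1 was the highest for 65 of 68 listed ribosomal protein genes and for 12 of 18 pan-neuronal genes. It was the lowest for 24 of 24 G2/M genes, 24 of 26 G1/S genes, 20 of 23 immediate early and heat shock genes and 18 of 24 Wnt genes. The median member in WT1 lay, on the log2 scale against the mean of the other two, at 0.45 for ribosomal protein genes, -0.38 for G2/M genes and -0.49 for G1/S genes. It lay at -0.64 for immediate early and heat shock genes, with -0.19 for all genes. WT2 was the highest for 24 of 24 G2/M, 17 of 18 epithelial, 11 of 12 smooth muscle and 16 of 20 leukocyte genes. Its median member lay at 1.61 for epithelium and 0.67 for smooth muscle, with 0.12 for all genes. WT3 was the highest for 15 of 20 mesenchyme, 13 of 20 endothelial and 7 of 9 mesothelial genes and the lowest for 14 of 20 leukocyte genes. All of these list counts leave out members with a mean below 1 TPM. No count is given for mast cell genes. Tpsb2 passed that limit only through WT3, and Mcpt4 and Mcpt1, highest in WT1, fell below it. Scaling with TMM factors left the library that led or trailed each of these lists in place. Of 18 progenitor factors, WT1 was the highest for 7, WT2 for 5 and WT3 for 6. Genes of a list share their library and are not replicates, and 1 library of each pattern gives no test.

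**Figure D5:**
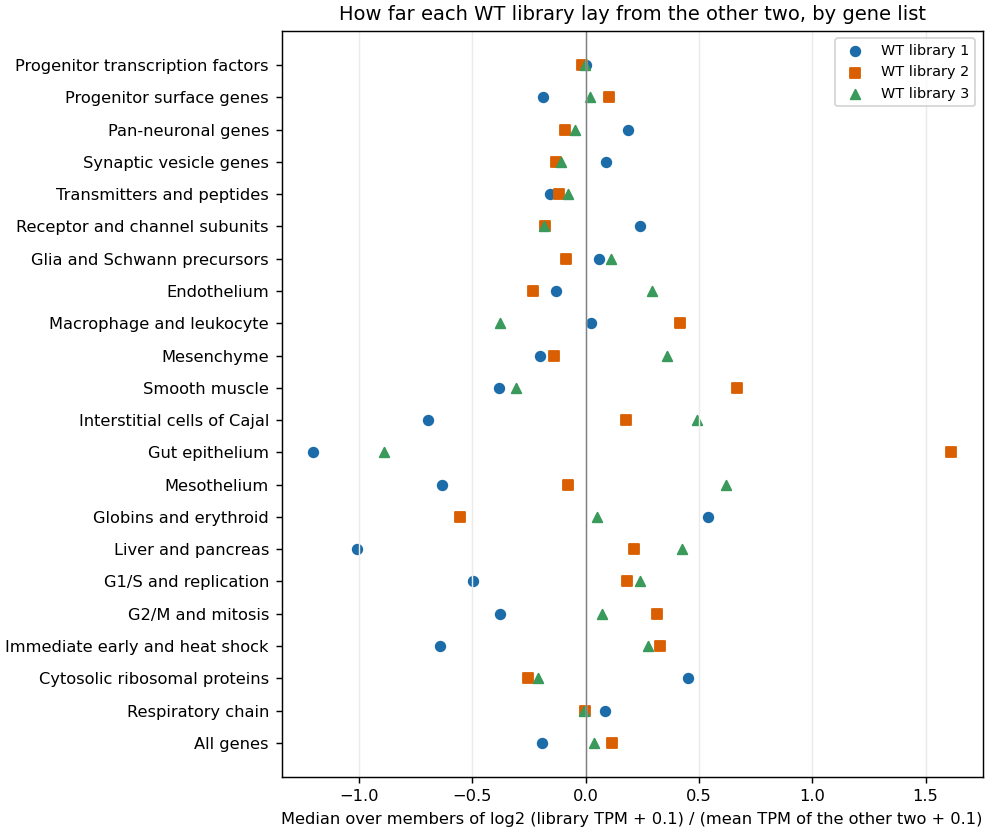
Median over list members of log2 of a WT library's TPM over the mean of the other two, with 0.1 TPM added to both; each row is a gene list and each point a library. WT1 lies at 0.45 for ribosomal protein genes and below 0 for cell cycle genes and for immediate early and heat shock genes, and WT2 at 1.61 for epithelium.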

How the data were processed

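RNA of about 200 sorted cells a tube was amplified with Smart-seq2 and sequenced as DNA nanoballs, per the labels' protocols. The submitters' processing notes name HISAT, Bowtie2 and the build GRCm38.p6, with no versions. How genes were counted, and on which annotation, is not given in the sources used here. The protocol does not mark strand and has no molecular identifiers, so antisense partners cannot be told apart and amplified copies count as reads. The deposited expected counts are the authors' estimates for each gene, not normalised, per the file headers. The deposited TPM is, per the file headers, the authors' length-scaled level, and it summed to 1000000 in each library. Columns were mapped to samples by name, and 0 belonged to no sample of the series.

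TPM of the 3 WT libraries was averaged per gene and summed per list, with SD over libraries. Expected counts were rounded for edgeR 4.0.16 (R 4.3.3), which gave TMM factors of 0.974, 1.01 and 1.01 and the coefficient of variation from a fit with an intercept only, tested on simulated data. Tables and figures used Python 3.11.15, pandas 2.3.3, numpy 2.4.6 and matplotlib 3.10.9. Of 18561 genes, 18503 matched RefSeq of GRCm38.p6 by gene identifier and 18377 were protein coding. As a check for repeated libraries, pairs of libraries had a chi-square per degree of freedom of 30.6 to 60.05 over genes, which amplified reads raise, and none were merged.

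The members and the 38 gene lists were chosen with earlier results of these data known. Of 682 genes on the lists, 673 were in the table, and the other 9 were not analysed here. The text names Ret, Sox10, Ednrb, Ngfr, B3gat1 and Emb, genes from the 30 highest in mean TPM, up to 6 leading members of a list (some are not reported here), members of identity and signalling lists below 1 TPM, and the 10 genes of highest and lowest coefficient of variation above 20 TPM. Foxd3, Chat, Nos1, Vip, S100b, Shh, Ihh, Cd74, Msln, Rps3a1 and Rps6 were added after their values were seen. Alternatives were TMM scaling, medians, shares of counts, TPM without the listed ribosomal protein genes, other detection limits and each library left out.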

Additional observations from a re-analysis of the deposited data

How the results depend on the processing

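Summed levels of all 38 lists moved by less than 1 SD with TMM-scaled TPM. With 3 libraries, a median or a mean without a library cannot lie 1 SD away, so those settings show nothing about stability. The mast cell mean of 362 TPM was 51.0 TPM without WT3 and 81.9 TPM as a median, and the epithelial mean of 965 TPM was 652 TPM without WT2. Shares of counts, which weigh long genes more, moved most of them. Per 1000000 counts, the lists held 2365 for progenitor factors, 3646 for progenitor receptors, 3700 for pan-neuronal, 1885 for glial, 1102 for endothelial, 809 for leukocyte, 4520 for mesenchyme, 6770.5 for erythroid and 56999.6 for ribosomal protein genes. A further setting was TPM without the listed ribosomal protein genes, in which Rpl41 and Rps3a1 stayed. It gave 1541 for progenitor factors, 1477 for progenitor receptors, 3069.95 for pan-neuronal, 1758 for glial and 899.7 for endothelial genes. The median coefficient of variation was 6.53% to 14.2% with a library left out, and it was 6.53% without WT1, whose cause was not tested. No paired analysis was possible because only 1 group of libraries was described. Depth allowed values down to 0.141 counts per 1000000 counts or less, counting error only, and 3 libraries limit every SD.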
